A study of Mus musculus with 2 samples.

Results

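The BCL2 family genes described here are 10 mouse genes that decide whether the mitochondrial outer membrane stays closed or opens. They comprise 3 survival genes (Mcl1, Bcl2l1 and Bcl2), 2 effectors (Bak1 and Bax) and 5 BH3-only genes (Bid, Bcl2l11, Bbc3, Bad and Pmaip1). The genes were chosen by symbol, and all 10 had a row in both gene tables, out of 43346 Ensembl genes in all, with 40 annotated transcripts between them. They were measured in G1E, an immortalised erythroid progenitor line that the labels describe as Gata1-, that is, without a working copy of the gene for the erythroid transcription factor GATA1. The labels give the strain as C57BL/6J, the sex as male and the stage as postnatal, at 0 day. Total RNA was sequenced from 2 biological replicates, with 1 ng of RNA over 200 nucleotides and added spike-in RNA going into each library. There is 1 group, with no line in which GATA1 is restored and no treatment, so every comparison below is between genes, between transcripts, or between the libraries of replicate 2 and replicate 1. The labels call the replicates biological but do not say how the cultures were separated, so the p-values given below measure only the counting error between these libraries.

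Survival proteins of the BCL2 family hold the effectors BAK and BAX in check at mitochondria. BH3-only proteins carry stress signals to the family by placing a short helix, the BH3 domain, into a groove of the survival proteins or of the effectors. When effectors are released they form pores, cytochrome c leaves the mitochondria, and APAF1 assembles the apoptosome that activates caspases. In erythroid cells Bcl2l1, which encodes BCL-XL, is known as a gene under the control of GATA1 and of erythropoietin signalling through STAT5, and MCL1 is a short-lived protein needed by many blood progenitors.

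What the family shares is the BH3 core, which is shown first because it defines the members. In the annotated coding sequences the core was searched for as a leucine codon, any 3 codons, a codon for glycine, alanine or serine, and an aspartate codon. The 9 members shown each held exactly 1 match in the transcript used, which has the highest share of the gene's TPM on the mean of both libraries. Pmaip1, which is not shown, held 2 matches in Pmaip1-201. How often the pattern occurs in other coding sequences was not measured, so the matches describe the members and test nothing. The lines give 4 codons on either side in lower case and the 18 bases of the core in capitals, read 5′ to 3′ along the coding strand, from GENCODE M21 transcripts on GRCm38.
Mcl1: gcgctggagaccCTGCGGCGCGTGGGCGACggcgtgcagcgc
Bcl2l1: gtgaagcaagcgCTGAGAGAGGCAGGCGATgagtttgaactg
Bcl2: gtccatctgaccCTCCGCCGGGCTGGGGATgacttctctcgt
Bak1: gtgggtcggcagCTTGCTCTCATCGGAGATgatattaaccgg
Bax: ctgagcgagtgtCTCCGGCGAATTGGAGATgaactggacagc
Bid: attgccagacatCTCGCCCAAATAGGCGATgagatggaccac
Bcl2l11: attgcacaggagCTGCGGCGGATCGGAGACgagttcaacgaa
Bbc3: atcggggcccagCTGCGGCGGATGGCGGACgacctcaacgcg
Bad: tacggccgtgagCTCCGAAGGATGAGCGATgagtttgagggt
The fifth codon of the core was a glycine codon in 7 of the 9 genes, an alanine codon in Bbc3 and a serine codon in Bad. The leucine codon was CTC in 4 genes, CTG in 4 and CTT in Bak1 alone. The closing aspartate codon was GAT in 6 genes and GAC in 3, namely Mcl1, Bcl2l11 and Bbc3.

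The replicate 2 library held 40597614 estimated counts, 18.7% of them from nuclear protein-coding genes other than histones, and the replicate 1 library held 31649878, with 26.6% from such genes. Levels are given as TPM, which corrects for transcript length and sums to the same total in every library. The median TPM of detected nuclear protein-coding genes was 6.08 in replicate 2 and 9.31 in replicate 1, so most TPM values below are lower in replicate 2, and ratios between the libraries are given on counts scaled by TMM (trimmed mean of M-values). All 8 erythroid progenitor markers were detected in both libraries, at summed levels of 340.28 TPM in replicate 2 and 516.82 TPM in replicate 1. Of 5 lymphocyte, 6 macrophage and granulocyte and 5 fibroblast and endothelial markers none was detected, and the 5 lymphocyte markers stood at 0 counts in both libraries. The macrophage markers Adgre1, with 15 counts in replicate 2 against 1 in replicate 1, and Cd68, with 1 against 17, were the only markers called between the libraries. Gata1 itself had 12.51 TPM in replicate 2 and 21.96 TPM in replicate 1, and gene-level values do not show whether that RNA spans the altered part of the allele. The libraries differed in genes of red cell maturation: Slc4a1, the anion exchanger of the red cell membrane, had 10387 counts in replicate 2 against 115 in replicate 1, and Alas2, the first enzyme of erythroid haem synthesis, had 414 and 56. In RNA from whole cultures, a larger share of cells of one type and more RNA per cell cannot be told apart.

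In G1E the family's RNA was dominated by Mcl1 and Bak1. Of the 10 genes 8 were detected, meaning a TPM of at least 1 in both libraries, against 38.9% of 21461 nuclear protein-coding genes. Mcl1 and Bak1 led in both libraries. Bid, Bax, Bcl2l1 and Bcl2l11 followed between 5.31 and 14.32 TPM, Bbc3 and Bad lay between 1.37 and 3.29 TPM, Bcl2 stayed below 1 TPM in both, and Pmaip1 was listed at 0. Among neighbours in this order, Bak1 lay above Bid, Bcl2l11 above Bbc3, Bad above Bcl2 and Bcl2 above Pmaip1 in both libraries with ranges that did not overlap. Mcl1 exceeded Bak1 within each library with deposited intervals apart, although the replicate 1 level of Bak1 was above the replicate 2 level of Mcl1. Bid, Bax, Bcl2l1 and Bcl2l11 changed places between the libraries, as did Bbc3 and Bad, so the order within those neighbours did not hold beyond the spread.

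**Figure D1:**
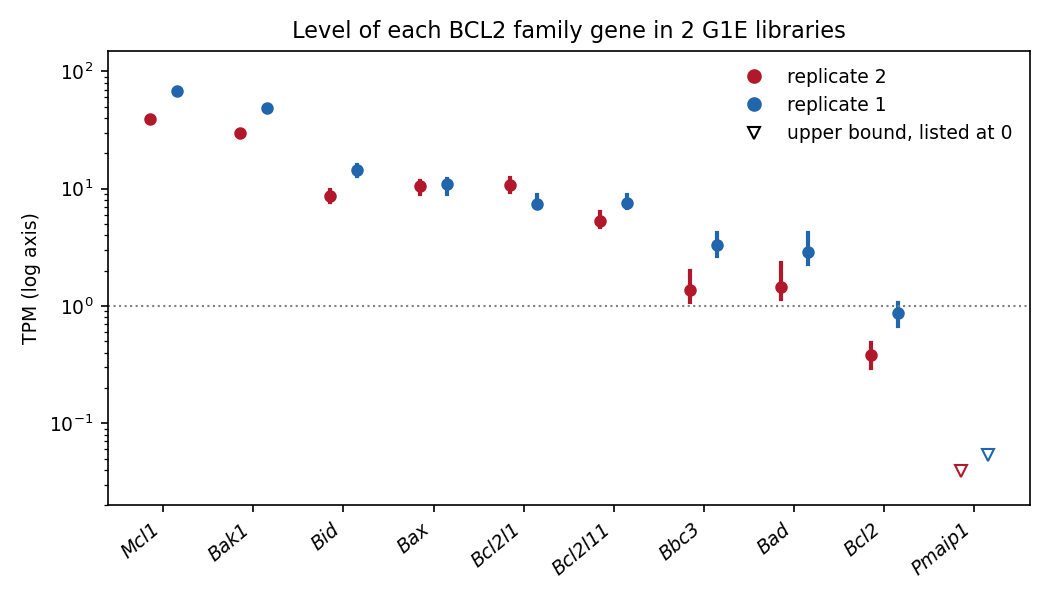
TPM of each of the 10 genes (log axis) in the library of replicate 2 (red, left) and of replicate 1 (blue, right). Dots are the deposited TPM, vertical lines the deposited 95% credibility intervals around the posterior mean, open triangles the upper bound where a gene is listed at 0, and the dotted line marks 1 TPM. Mcl1 and Bak1 stand above the other 8 genes in both libraries, and Pmaip1 has only an upper bound.

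Mcl1, the short-lived survival protein that binds both BAK and BIM, was the highest of the family. It had 38.91 TPM in replicate 2 and 68.40 TPM in replicate 1, on 3846 and 4891 counts (mean 53.7 ± 20.9 TPM, SD, n = 2). That put it at the 93.9th and the 94.7th percentile of detected nuclear protein-coding genes. Its locus is chr3:95658788-95663176 on the plus strand of mm10. All of its counts were assigned to Mcl1-201, which encodes 331 codons. Mcl1-202, with 285 codons and the same BH3 core, was listed at 0 counts in both libraries, with upper bounds of 0.168 TPM in replicate 2 and 0.219 TPM in replicate 1.

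Bcl2l1 encodes BCL-XL, the survival protein linked to GATA1 and erythropoietin in red cell precursors. Summed over all its transcripts, it was the only member whose TPM was higher in replicate 2. Its level was 10.70 TPM in replicate 2 and 7.36 TPM in replicate 1, on 488 and 363 counts (mean 9.03 ± 2.36 TPM, SD, n = 2). That direction rests on Bcl2l1-209, a transcript without an annotated frame that is described below. Without it the level was 5.87 TPM in replicate 2 and 7.35 TPM in replicate 1, lower in replicate 2. As CPM (counts scaled to library size, not corrected for length), Bcl2l1 had 12.0 in replicate 2 and 11.5 in replicate 1. On that scale, which follows total counts, Mcl1 had 94.7 CPM in replicate 2 and 154.5 CPM in replicate 1. With TMM-scaled counts, also not corrected for length, the Bcl2l1 ratio was 1.51, replicate 2 over replicate 1. The effective length behind the Bcl2l1 TPM was 1551 bases in replicate 2 and 2326 bases in replicate 1, with different transcripts assigned in the 2 libraries. Mcl1 RNA thus exceeded Bcl2l1 RNA 3.64-fold by TPM in replicate 2 and 9.29-fold in replicate 1, or 7.88-fold and 13.5-fold by counts.

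A Bcl2l1 transcript was the only one of the family with deposited intervals apart between the libraries and a higher level in replicate 2. The gene lies on the minus strand at chr2:152780668-152831728. Bcl2l1-201 and Bcl2l1-202 have different first exons and the same 233-codon frame, the long BCL-XL form. Bcl2l1-209 is a processed transcript without an annotated frame, of 2 exons. It starts with an 89-base exon at chr2:152828447-152828535, inside the intron that follows the first coding exon, and that exon is spliced to the same acceptor as in Bcl2l1-201. The junctions are shown because they are what separates the forms: the last 20 bases of the upstream exon are in lower case and the first 20 bases of the shared last exon in capitals.
Bcl2l1-201: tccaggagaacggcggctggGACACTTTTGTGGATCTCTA
Bcl2l1-209: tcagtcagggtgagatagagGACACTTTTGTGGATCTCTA
Both junctions enter the last exon at chr2:152782282, from chr2:152829427 in Bcl2l1-201 and from chr2:152828447 in Bcl2l1-209. Bcl2l1-209 had 4.83 TPM in replicate 2 and 0 TPM in replicate 1, with deposited intervals of 3.16 to 6.51 TPM and of up to 0.927 TPM. It took 45.16% of the gene's TPM in replicate 2 and 0% in replicate 1, on 118.94 and 0 estimated counts. Bcl2l1-201 took 30.95% in replicate 2 and 67.86% in replicate 1, at 3.31 TPM and 4.99 TPM, with overlapping intervals. Bcl2l1-202 took 14.93% and 25.88%, at 1.60 TPM and 1.90 TPM, also with overlapping intervals. Bcl2l1-207, a 96-codon fragment of the frame, took 5.02% on 8.36 counts in replicate 2 and 0% in replicate 1. The share of Bcl2l1-201, the largest on the mean of both libraries though not in replicate 2, was thus 49.4 ± 26.1% (SD, n = 2). The coding transcripts of Bcl2l1 all had overlapping intervals between the libraries, and the 1 transcript that starts within the intron did not.

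Of 24 member transcripts with at least 10 counts over both libraries, Bcl2l1-209 was the only one with intervals apart and higher in replicate 2. Over all 30737 transcripts tested the share was 2.99%, so 1 of 24 is near that background. Another 8 had intervals apart and lower in replicate 2, against 31.7% of all transcripts, a share near that background. Bcl2l1-209 shares 872 of its 961 bases with the last exon of Bcl2l1-201, including 135 of the 699 coding bases. Its estimate thus rests on the 89-base exon, its junction and the coverage of a shared exon. Bcl2l1-205 and Bcl2l1-206 also reach into at least part of the 89-base exon, so reads within it are not all unique to Bcl2l1-209. Reads over that exon were not analysed here. The maturation genes higher in the same library are given above, and their part in this difference was not tested.

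**Figure D2:**
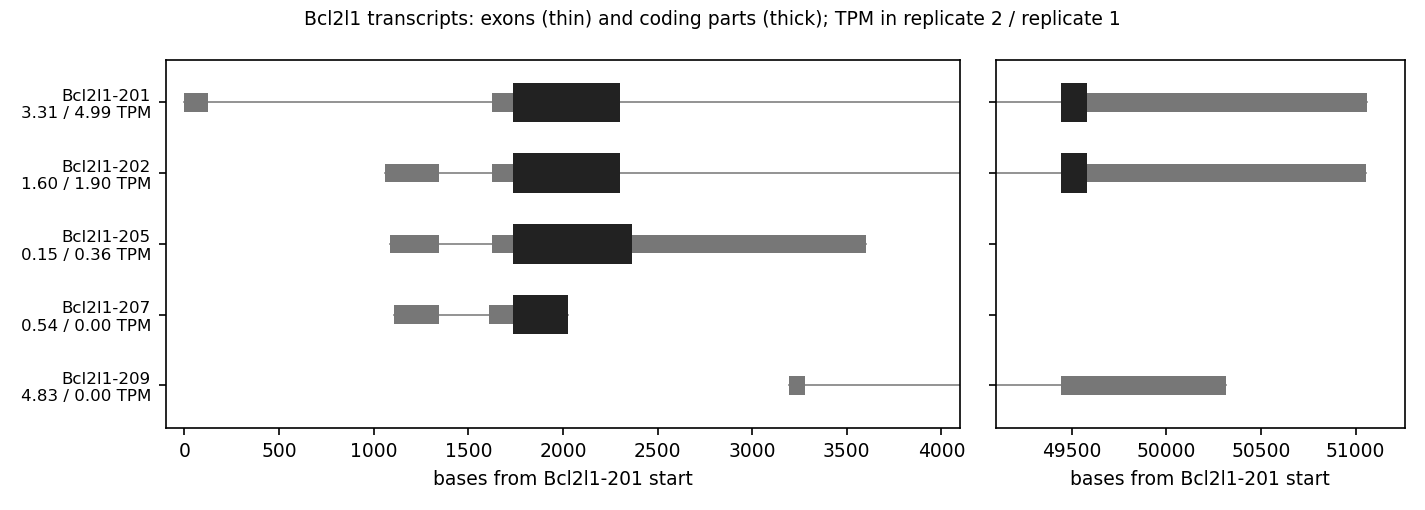
Exon models of 5 Bcl2l1 transcripts, drawn to scale as bases from the start of Bcl2l1-201, with a long stretch of intron left out between the panels; thick boxes are coding and thin boxes are not. The label gives the TPM in replicate 2 and then in replicate 1. Bcl2l1-209 starts 3193 bases downstream of Bcl2l1-201, past the first coding exon, and has 4.83 TPM in replicate 2 and 0 TPM in replicate 1.

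RefSeq lists a Bcl2l1 start of its own at this place. Of 3 Bcl2l1 promoter windows in RefSeq (GRCm38.p6, 250 bases before to 50 after a start), 1 begins transcription at chr2:152828489, which is 46 bases downstream of the first base of Bcl2l1-209. The 250 bases before that start, chr2:152828490-152828739 on the minus strand, are given below. The transcript that differed between the libraries begins inside them. Capitals mark the 1 match to the GATA letters, searched on both strands as GATA with A or T before it and A or G after it.
Bcl2l1 intronic start: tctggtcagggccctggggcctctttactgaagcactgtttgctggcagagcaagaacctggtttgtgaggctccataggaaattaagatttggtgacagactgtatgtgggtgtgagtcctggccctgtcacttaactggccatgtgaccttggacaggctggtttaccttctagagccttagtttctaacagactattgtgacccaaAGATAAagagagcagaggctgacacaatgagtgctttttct
The match lies 41 to 36 bases before the RefSeq start, and thus inside the first exon of Bcl2l1-209, which begins 46 bases before that start. The full 300-base window held 2 matches and the windows of the other 2 Bcl2l1 starts held none. The window shown was picked as the 1 of these 3 with the most matches, so the shares that follow are no test of it. Over all 32851 RefSeq windows of the same length, 29.8% held at least 1 match and 7.77% held at least 2, and of 15 windows of 9 members the only other match was in Bid. A match to such short letters is a description of the sequence and shows no binding.

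Bcl2, the founding survival gene of the family, was low. It had 0.38 TPM in replicate 2 and 0.87 TPM in replicate 1, on 73 and 95 counts (mean 0.625 ± 0.346 TPM, SD, n = 2). Mcl1 RNA exceeded it 102-fold in replicate 2 and 78.6-fold in replicate 1 by TPM. Its main transcript Bcl2-201, with 236 codons, took 86.9% of the TPM in replicate 2 and 56.3% in replicate 1. The rest went to Bcl2-202, a single-exon form with 199 codons, on 4 and 21.9 counts. A known antisense gene within the Bcl2 locus, D630008O14Rik, was at 0 counts in both libraries.

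Among the effectors, Bak1 stood well above Bax. Bak1, whose protein sits in the outer membrane already in healthy cells, had 29.75 TPM in replicate 2 and 48.55 TPM in replicate 1, on 1659 and 1994 counts (mean 39.2 ± 13.3 TPM, SD, n = 2). Bax, whose protein moves to mitochondria on activation, had 10.54 TPM in replicate 2 and 10.86 TPM in replicate 1, on 231 and 174 counts (mean 10.7 ± 0.226 TPM, SD, n = 2). The excess of Bak1 over Bax by TPM was 2.82-fold in replicate 2 and 4.47-fold in replicate 1. All Bax counts went to its 1 listed transcript, Bax-201, with 192 codons. In GENCODE M21 the protein-coding gene Gm45808 overlaps Bax on the same strand. It has no counts of its own here, so its part in the Bax counts was not tested.

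Most Bak1 RNA was assigned to a transcript annotated as a target of nonsense-mediated decay, the pathway that degrades RNAs with an early stop codon. Bak1-201, of that class and with 151 codons, took 79.95% of the TPM in replicate 2 against 73.93% in replicate 1 (mean 76.9 ± 4.26%, SD, n = 2). Bak1-202, the 209-codon protein-coding form, took 18.19% and 24.47%. Bak1-201 holds a 20-base exon at chr17:27021663-27021682 on the minus strand that Bak1-202 lacks. The exon is shown in capitals with 20 bases of each neighbouring exon, above the junction that skips it, where capitals mark the downstream exon.
Bak1-201: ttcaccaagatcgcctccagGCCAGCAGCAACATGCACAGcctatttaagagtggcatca
Bak1-202: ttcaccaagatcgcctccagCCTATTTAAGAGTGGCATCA
The transcripts share 1954 exon bases. Bak1-202 also has a first exon of 599 bases against 168 bases in Bak1-201, so the split depends on coverage of that first exon as well as on the short exon, and the share cannot be assigned to the short exon alone. Ggnbp1 overlaps Bak1 on the opposite strand, with 111.86 counts in replicate 2 and 140.28 in replicate 1, and whether the counting used strand is not stated.

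**Figure D3:**
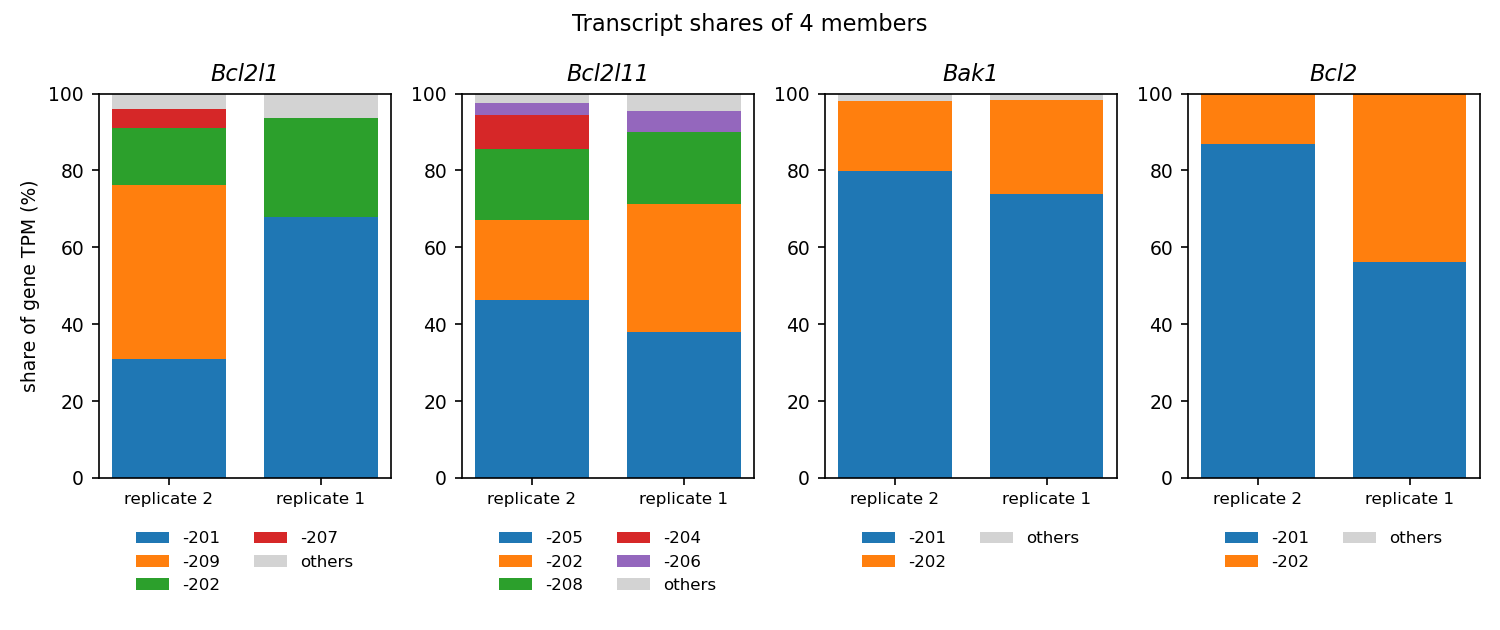
Share of each gene's TPM (%) on its transcripts in replicate 2 (left bar) and replicate 1 (right bar) for Bcl2l1, Bcl2l11, Bak1 and Bcl2; transcripts under 5% in both libraries are summed in grey. Bcl2l1-209 fills 45.16% of the replicate 2 bar and is missing from the replicate 1 bar, and Bak1-201 fills 79.95% and 73.93% of the Bak1 bars.

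Of the BH3-only genes, Bid and Bcl2l11 were the higher pair. Bid, which death receptor signalling cleaves through caspase-8, had 8.62 TPM in replicate 2 and 14.32 TPM in replicate 1, on 480 and 553 counts (mean 11.5 ± 4.03 TPM, SD, n = 2). Its 195-codon transcript Bid-201 took 79.44% and 73.76% of the TPM. Bcl2l13 overlaps the end of Bid on the opposite strand, with 1991 counts in replicate 2 and 2204 in replicate 1. Bcl2l11, which encodes BIM and is held down by cytokine signalling in blood cells, had 5.31 TPM in replicate 2 and 7.57 TPM in replicate 1, on 482 and 471 counts (mean 6.44 ± 1.60 TPM, SD, n = 2). By TPM, Bcl2l11 stood at 0.496 of Bcl2l1 in replicate 2 and at 1.03 of it in replicate 1, so which of the pair was higher changed between the libraries. The Bcl2l1 level in replicate 2 includes 4.83 TPM of Bcl2l1-209, which has no annotated frame.

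Bcl2l11 RNA was split among several forms. The extra-long form Bcl2l11-205, with 196 codons, led with 46.34% of the TPM in replicate 2 against 37.86% in replicate 1 (mean 42.1 ± 6.00%, SD, n = 2). Bcl2l11-202, a 91-codon frame that ends in an exon within the following intron and holds no BH3 core, took 20.76% and 33.29%. Its level of 1.10 TPM in replicate 2 and 2.52 TPM in replicate 1 had intervals apart, in the direction that 31.7% of all transcripts took. The processed transcript Bcl2l11-208 took 18.45% and 18.80%, and Bcl2l11-206, of the same class, took 3.27% and 5.44%. Bcl2l11-204, with 110 codons, took 8.76% on 7.51 counts in replicate 2 and 0% in replicate 1. The junctions that separate the 3 coding forms on the plus strand of chromosome 2 are shown with the downstream exon in capitals.
Bcl2l11-205: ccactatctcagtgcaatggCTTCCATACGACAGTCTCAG
Bcl2l11-204: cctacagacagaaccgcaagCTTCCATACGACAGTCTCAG
Bcl2l11-202: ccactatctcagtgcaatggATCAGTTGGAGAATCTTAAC
Bcl2l11-205 joins chr2:128129014 to chr2:128147085, Bcl2l11-204 joins chr2:128128756 to the same acceptor, and Bcl2l11-202 joins chr2:128129014 to chr2:128129637. Transcripts whose annotated frame holds the BH3 core thus carried 55.1% of Bcl2l11 TPM in replicate 2 and 37.9% in replicate 1. The same share was 54.8% and 100% for Bcl2l1, 88.6% and 83.6% for Bid, 80.8% and 77.4% for Bbc3, and 100% in both libraries for Mcl1, Bcl2 and Bax. For Bak1 it was 98.1% and 98.4%, since the frame of the decay-annotated Bak1-201 holds the core. For Bad it was 56.5% and 45.6%, but the frames of Bad-204 and Bad-205 do not begin with a start codon and were not searched.

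The remaining BH3-only genes were low or listed at 0. Bbc3, which encodes PUMA and is a classical target of p53, had 1.37 TPM in replicate 2 and 3.29 TPM in replicate 1, on 61 and 104 counts (mean 2.33 ± 1.36 TPM, SD, n = 2), and Bbc3-201 took 80.77% and 77.37% of it. Bad, whose protein is switched off by phosphorylation under growth factors, had 1.45 TPM in replicate 2 and 2.89 TPM in replicate 1, on 36 and 43 counts (mean 2.17 ± 1.02 TPM, SD, n = 2). With so few counts the Bad transcripts were not resolved: Bad-202, first on the mean of both shares, took 30.25% in replicate 2 and 45.61% in replicate 1 and led in neither. Bad-204 led in replicate 2 with 43.54% and was at 0% in replicate 1, and Bad-205 led in replicate 1 with 54.39% and was at 0% in replicate 2. Gpr137 overlaps Bad on the opposite strand, with 115 counts in replicate 2 and 89 in replicate 1, more than Bad itself, so its level carries the same doubt about strand as that of Bak1. Pmaip1, which encodes NOXA, a BH3-only protein known for binding MCL1, had 0 counts in both libraries. Its deposited upper bounds were 0.0395 TPM in replicate 2 and 0.0541 TPM in replicate 1, and a count of 0 allows up to 0.0739 CPM and 0.0948 CPM for 3 counts, by counting error alone.

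Summed by role over all annotated transcripts, the family had nearly the same make-up in both libraries although single members changed places. The 3 survival genes summed to 49.99 TPM in replicate 2 and 76.63 TPM in replicate 1, which was 46.7% of the family in each. The replicate 2 sum includes 4.83 TPM of Bcl2l1-209, which has no annotated frame and was at 0 TPM in replicate 1. The 2 effectors summed to 40.29 TPM and 59.41 TPM, or 37.6% and 36.2%. The 5 BH3-only genes summed to 16.75 TPM and 28.07 TPM, or 15.6% and 17.1%. Survival RNA over effector RNA was 1.24 in replicate 2 and 1.29 in replicate 1, a mean log2 of 0.34 ± 0.04 (SD, n = 2). With transcripts annotated as protein-coding only, an alternative added after seeing the data, the mean log2 was 1.63 ± 0.18 (SD, n = 2). Most Bak1 RNA then drops out of the effector sum, and Bcl2l1-209 out of the replicate 2 survival sum. Within the survival genes the balance was less even: Mcl1 made up 36.4% of the family in replicate 2 and 41.7% in replicate 1, and Bcl2l1 made up 9.997% and 4.48%. Among the effectors, Bak1 made up 27.8% and 29.6%, and Bax made up 9.85% and 6.62%.

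**Figure D4:**
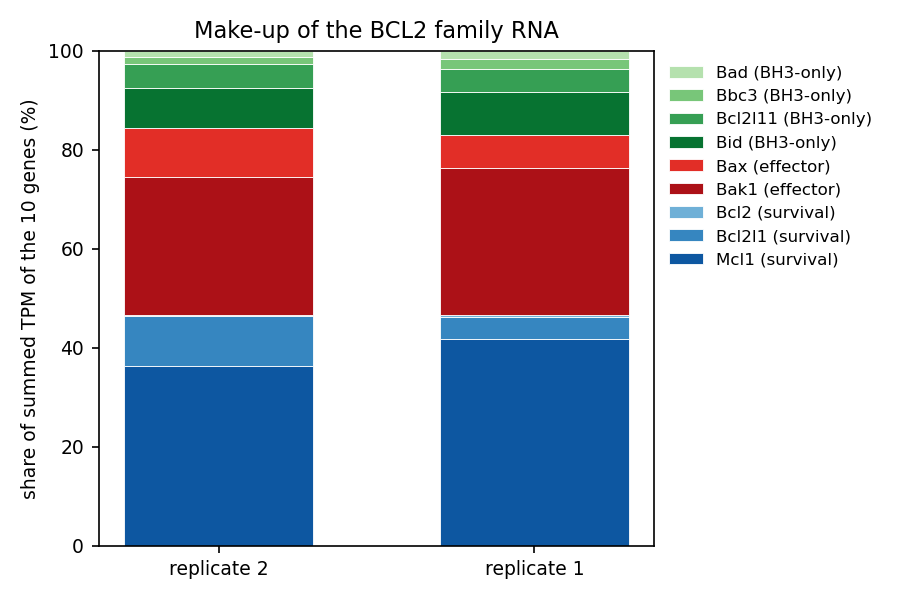
Share (%) of the summed TPM of the 10 genes taken by each gene in replicate 2 (left) and replicate 1 (right), with survival genes in blue, effectors in red and BH3-only genes in green. The blue blocks end at 46.7% in both bars, with a larger Bcl2l1 block in replicate 2.

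Between the libraries no member passed both limits. Each gene with at least 10 counts over both libraries was tested with a two-sided exact binomial test of its rounded counts, Benjamini-Hochberg adjusted over 11902 genes, and called at an adjusted p under 0.05 with at least a 2-fold ratio. None of the 9 members tested was called, against 7.32% of all genes tested. At the adjusted p alone 4 of 9 members passed, against 32.3% of all genes. Of these, Bcl2l1 was higher in replicate 2, at a ratio of 1.51 (95% interval 1.32 to 1.73, adjusted p = 4.12e-08 by the exact binomial test), and so was Bax, at 1.49 (1.22 to 1.83, adjusted p = 0.000498 by the same exact test). Mcl1 was lower in replicate 2, at 0.883 (0.846 to 0.921, exact binomial adjusted p = 1.23e-07), and so was Bbc3, at 0.659 (0.472 to 0.912, exact binomial adjusted p = 0.034). The other 5 had ratios between 0.863 for Bcl2 and 1.15 for Bcl2l11. The median log2 ratio of the 9 was -0.09, against 0.01 over all genes tested.

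Leaving out Bcl2l1-209, which was picked for its difference between the libraries, can only lower the Bcl2l1 ratio, and the value is given as a description. Without it, an alternative added after seeing the data, Bcl2l1 had 369.06 estimated counts in replicate 2 against 363 in replicate 1. The ratio was then 1.14, and no p-value is given because the transcript was picked from these same libraries. With total counts in place of TMM, which moves the median log2 ratio of all genes to -0.52, the ratio was close to 1 for Bcl2l1 (1.05) and Bax (1.04), and that of Bcl2l11 turned to 0.798. With ERCC spike-ins, which move that median to -4.49, all 9 ratios lay below 1, as for nearly all genes: 11608 of 11902 were called lower in replicate 2. A negative binomial exact test was also run, with a spread (a coefficient of variation of 26.3%) estimated from both libraries taken as 1 group. The difference between the libraries is then part of the spread it is tested against. Such a test cannot decide whether a member differed, so its calls are not given. Its log2 ratios, replicate 2 over replicate 1, ran from -0.601 for Bbc3 to 0.594 for Bcl2l1.

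**Figure D5:**
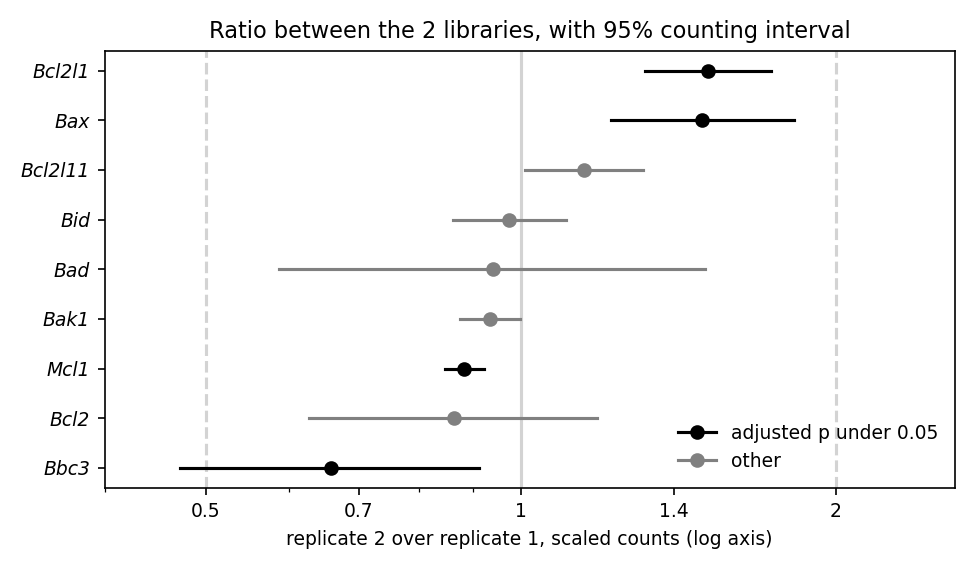
Ratio of TMM-scaled counts, replicate 2 over replicate 1 (log axis), for the 9 members with counts; lines are exact 95% counting intervals and dashed lines mark 2-fold. Black marks the 4 genes with an adjusted p under 0.05; Bcl2l1 at 1.51 and Bax at 1.49 lie to the right, and no point crosses a dashed line.

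Outside the 10 members, most of the wider BCL2 family was listed at 0. Of 15 further family genes, 5 were detected and 9 were listed at 0 counts in both libraries: Bok, Bik, Hrk, Bcl2l10, Bcl2l14, Bcl2l15, Bcl2a1a, Bcl2a1b and Bcl2a1d. The Bcl2a1 genes are near-identical copies, so reads from them can be hard to assign. The highest was Bnip3l, the mitophagy receptor that clears mitochondria from maturing red cells, with 114.61 TPM in replicate 2 and 172.35 TPM in replicate 1. Its relative Bnip3 had 44.52 TPM and 57.23 TPM, Bcl2l13 had 9.94 TPM and 15.24 TPM, and Bcl2l12 had 1.50 TPM and 2.91 TPM. Of the 15, only 5 had enough counts to be tested between the libraries, and none of these was called, against 7.32% of all genes tested.

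The machinery on either side of the family was present. Of 16 apoptosome and caspase genes 15 were detected, among them Casp2 (12.22 TPM in replicate 2, 15.99 TPM in replicate 1), cytochrome c Cycs (9.15 and 16.72 TPM) and the caspase-binding Birc3 (9.52 and 15.57 TPM). In the death receptor arm 5 of 8 genes were detected, led by Cflar, an inhibitor of caspase-8, with 16.17 TPM in replicate 2 and 18.77 TPM in replicate 1. After it came Ripk1 (3.59 and 6.06 TPM), Casp8 (3.09 and 5.47 TPM) and Tnfrsf10b (1.65 and 2.30 TPM), while Fas, Fasl and Tnfrsf1a were listed at 0 counts in both libraries. All 4 outer membrane docking genes were detected. Vdac2, the channel that holds BAK at mitochondria, had 76.35 TPM in replicate 2 and 109.50 TPM in replicate 1. Mtch2, a docking site for BID, had 18.97 TPM and 36.24 TPM, Vdac1 had 17.06 TPM and 24.27 TPM, and Vdac3 had 12.35 TPM and 17.29 TPM. No tested gene of these 3 lists was called between the libraries, against 7.32% of all genes tested. Ratios under 2-fold, replicate 2 over replicate 1 on TMM-scaled counts, included 0.803 for Cycs, 0.844 for Mtch2 and 1.13 for Casp2.

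Regulators of the members were detected for the most part. Of 5 genes that control MCL1 turnover 4 were detected, with the MCL1 ubiquitin ligase Huwe1 at 56.92 TPM in replicate 2 and 80.03 TPM in replicate 1. The deubiquitinase Usp9x, which stabilises MCL1, had 38.35 TPM and 60.59 TPM. The ligase adaptors Btrc (2.20 and 3.48 TPM) and Fbxw7 (2.26 and 2.80 TPM) were lower, and Trib1 was listed at 0. Of 14 transcriptional regulators 12 were detected, led by Myc (40.70 TPM in replicate 2, 76.42 TPM in replicate 1), Trp53 (30.61 and 56.51 TPM), Gata2 (29.51 and 52.80 TPM) and Ddit3 (27.46 and 44.59 TPM), with Trp73 and Foxo1 listed at 0. All 4 cytokine input genes were detected, with the stem cell factor receptor Kit at 114.55 TPM in replicate 2 and 175.00 TPM in replicate 1, Csf2rb at 22.81 TPM and 37.28 TPM, Jak2 at 18.57 TPM and 29.51 TPM, and the erythropoietin receptor Epor at 5.30 TPM and 6.21 TPM. All 7 regulators of Bcl2l1 splicing were detected, led by Hnrnpk (196.00 TPM in replicate 2, 297.94 TPM in replicate 1), Rbm25 (174.40 and 266.18 TPM), Sf3b1 (77.39 and 108.90 TPM) and Hnrnpa1 (48.73 and 72.70 TPM). These proteins are known for the choice between the long and the short form of Bcl2l1 in human cells, and no transcript annotated as that short form is among the 9 listed here. Again, no tested gene of these 4 lists was called between the libraries, against 7.32% of all genes tested. A call needs a 2-fold ratio, and smaller ratios were present in both directions. On TMM-scaled counts, replicate 2 over replicate 1, the ratio was 0.787 for Myc, 0.840 for Trp53 and 0.867 for Gata2. It was 1.43 for Foxo3, another of the 14 transcriptional regulators, 1.32 for Epor, 1.29 for Fbxw7 and 1.10 for Usp9x.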

How the data were processed

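Total RNA of 2 G1E replicates was measured, with a gene and a transcript table for each library. The authors deposited expected counts (estimated, not normalised), TPM in a maximum-likelihood and a posterior-mean version, and FPKM, per the file headers. Per the file headers, other columns hold credibility bounds of TPM, and the share of a gene's TPM on each transcript was deposited as a percent. The file records name mm10 and GENCODE M4; no aligner or quantifier is given in the sources used here. Names, transcript classes and coordinates came from GENCODE M21 (GRCm38) by identifier without version (42462 of 43346 genes). Of the 40 member transcripts, 34 had the same length in both annotations, 5 another length, and 1 was not in M21.

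Counts were rounded and scaled by TMM (edgeR 4.0.16) and tested with exact binomial tests (SciPy 1.17.1); intervals are Clopper-Pearson at 95%. With 1 library a side these tests compare libraries, not conditions, and intervals and limits cover counting error only. With 2 libraries, 0.5 is the smallest two-sided p of an exact sign-flip test. DESeq2 1.42.0 size factors were an alternative. The named genes were all members, and of each context list the 4 highest, those at 0 in both libraries and those called (1 that the rule names is not reported here); of transcripts, those of Bcl2l1, Mcl1 and Bcl2l11 with at least 5% in a library and the main one of other members. Bcl2-202, Bak1-202, Mcl1-202, Foxo3 and the maturation genes were added after their values were seen. Members and lists were chosen with earlier results of these data known. BH3 cores and junctions were read from M21 transcripts with Biopython 1.88.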

Additional observations from a re-analysis of the deposited data

How the results depend on the processing

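The survival over effector ratio kept its direction under the alternatives tried; of the single ratios, Bcl2l11 turned to 0.798 with total counts, and Bcl2l11, Bcl2l1 and Bax turned to 0.0508, 0.0668 and 0.0659 with ERCC spike-ins. Taking CPM in place of TPM, which drops the length correction, moved the mean log2 of survival over effector RNA to 1.26 and the Mcl1 share of the family to 54.3%, and left 5 of 10 members at their rank. With protein-coding transcripts only, added after seeing the data, the log2 ratio was 1.63. Leaving out 1 library kept 6 to 8 of 10 ranks, gave a log2 ratio of 0.31 to 0.37 and a Bcl2l1-201 share of 31.0% to 67.9%. The number of members called was 1 with total counts (Bbc3, lower in replicate 2), where all genes turned from 609 higher and 262 lower in replicate 2 to 396 and 1021, and 4 with no limit on size. It was 9 with ERCC spike-ins, all lower in replicate 2 like 11608 of 11902 genes. That scaling gave a median log2 of -4.49, on 10351 spike-in counts in replicate 2 and 514 in replicate 1. The number called was 0 with DESeq2 size factors. A negative binomial test, whose spread came from the same libraries it compares, cannot decide this. The main Mcl1 transcript took 99.87% by posterior means, and Bcl2l11-205 took 68.7% by counts and 57.1% of protein-coding transcripts. Members detected ranged from 6 to 9 across units and limits. The library comparison cannot be repeated with 1 library left. Bad, Bbc3 and Bcl2 rest on 36 to 104 counts a library, which limits their ratios and transcript splits.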
